A study of Solenopsis invicta with 52 samples.

Results

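The 100 genes described here are those whose gaster level differed most, in the same direction, between the 3 groups of fire ant workers that had lived as adults in polygyne host colonies and the group that had lived in monogyne host colonies. They were chosen from gaster values alone, out of 16314 genes in all. Of these, 9516 averaged at least 1 CPM (read counts scaled to a common total of gene counts) in each of the 4 gaster groups. Their levels were compared as group means of log2(CPM + 0.5). In 3311 of the 9516 genes all 3 polygyne-host means lay above the monogyne-host mean, in 2775 all lay below it, and in 3430 they lay on both sides. The gap of a gene is the distance from the monogyne-host mean to the nearest polygyne-host mean, and it had to exceed the distance between the means of the 2 SB/SB polygyne-host groups. This left 3091 genes, and the 100 with the largest gaps were taken. Of the 100, 69 were higher and 31 lower in polygyne hosts, and they are called higher and lower members here. No identifier could be paired with a gene name from the tables at hand (0 of 16314), so that members are named by identifier only, and neither their roles nor tissue markers were analysed here.

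Solenopsis invicta, the red imported fire ant, forms monogyne colonies with a single egg-laying queen and polygyne colonies with several. The form goes with a supergene, a chromosome region whose haplotypes SB and Sb are inherited without recombining with each other. SB/SB workers live in colonies of both forms, while SB/Sb workers live in polygyne colonies. The gaster is the part of the abdomen behind the waist and holds the crop and midgut, the fat body, the ovaries and the venom and pheromone glands.

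Every worker was a minor worker of 0.6 to 0.9 mg that had been moved as a dark pupa into a host colony of 250 workers and taken 16 days after the move, when it was 14 to 16 days old. In mpBB the workers were SB/SB, came from monogyne colonies and were placed in polygyne hosts. In pBB they were SB/SB and in pBL they were SB/Sb, and in both they came from polygyne colonies and were placed in polygyne hosts. In mBB they were SB/SB, came from monogyne colonies and were placed in other monogyne hosts. Polygyne hosts had 2 egg-laying SB/Sb queens and monogyne hosts 1 SB/SB queen, so that queen number and queen genotype differed together with the host form. Only mpBB differed from mBB in the host alone. The groups pBB and pBL also differed from mBB in origin, and pBL in its own genotype. No group held workers of polygyne origin in monogyne hosts. Each group had 6 gaster and 7 brain libraries, each made from a single worker. The 52 libraries came from 32 workers, of which 20 gave both tissues. Per the labels' protocols, no stock colony served more than once as donor or host in a treatment. The labels do not say whether every worker of a group came from its own colony, so that p-values measure the spread between these workers.

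Gaster libraries held 30.01 to 77.3 M gene counts with a median of 62.8 M, and brain libraries 14.5 to 70.0 M with a median of 27.3 M. Gaster pBB replicate 1 had the fewest gaster counts, and 53.4% of its reads were unmapped, against a gaster median of 17.2%. Without it, 93 of the 100 members were chosen again. Brain mBB replicate 4 and brain pBL replicates 2, 4 and 6 had the lowest correlations with the other brains (median 0.963 to 0.973, against at least 0.977). Calls, unadjusted counts and directions for the 3 polygyne-host groups together are also given without these 4. The same holds for fold changes of the members named by their p in brain. Unadjusted counts of single groups are not given without them, although pBL lost the most brains. Every gaster group held 3 workers numbered under 140 and 3 numbered over 140, a split that the labels do not explain, and brain values are also given within each kind where that changed a call.

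In gaster, the gaps ranged from 0.46 to 2.10 on the log2 scale, with a median of 0.55. Higher members had a median gap of 0.55 and a largest gap of 1.60, and lower members had a median gap of 0.55 and a largest gap of 2.10. These values chose the genes, so that they are a description and no test was made of them. Gaps over 1 were found in 5 members, of which SINVBB1_00350 and SINVBB1_06091 were higher and SINVBB1_09260, SINVBB1_01264 and SINVBB1_08393b were lower in polygyne hosts. SINVBB1_08393b was named after its values were seen. The last gene inside the 100, SINVBB1_07766, had a gap of 0.4581, and the first gene outside, SINVBB1_02670, had a gap of 0.4565.

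**Figure D1:**
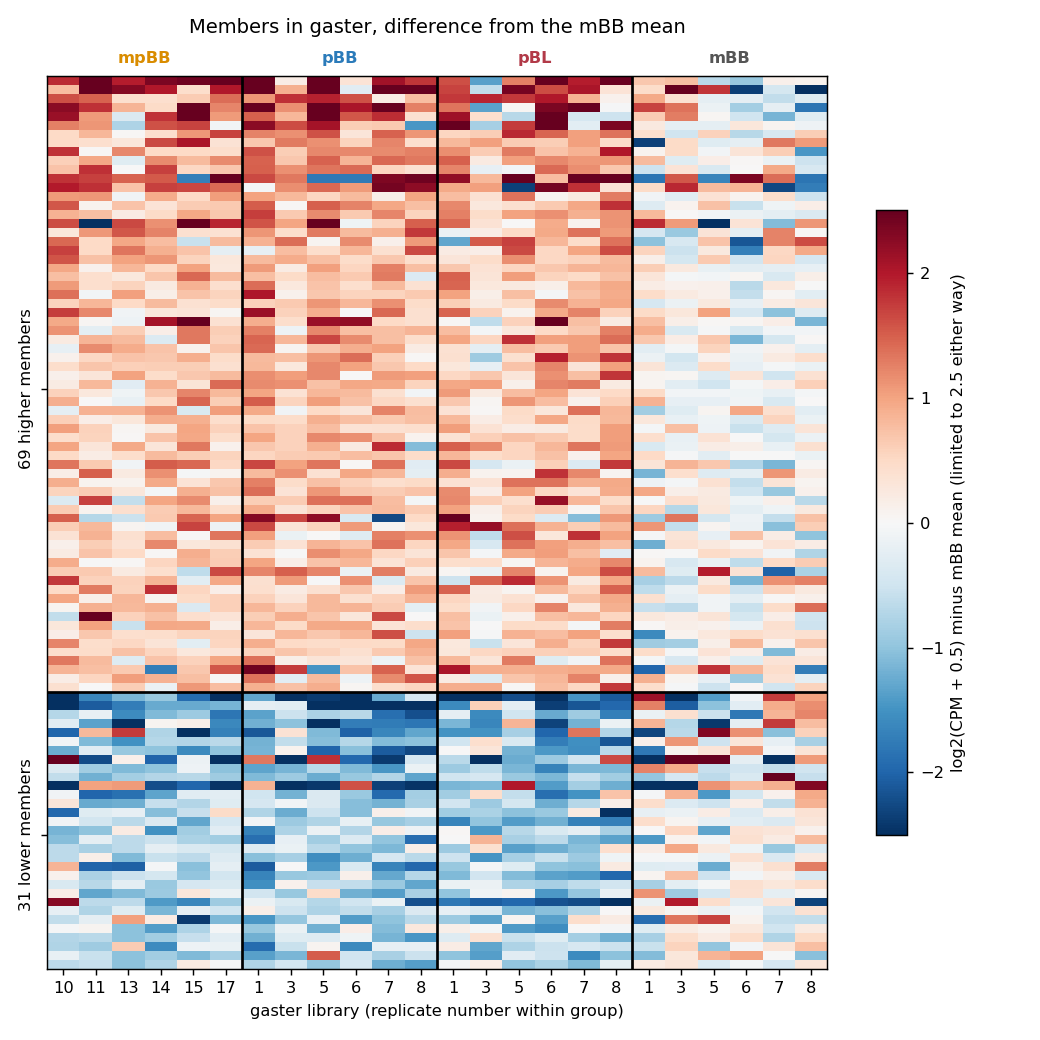
Each line of the map is a member (69 higher members above, 31 lower members below, in order of gap) and each column a gaster library, grouped as mpBB, pBB, pBL and mBB. The colour is the log2(CPM + 0.5) of that library minus the mBB mean of the gene, limited to 2.5 either way. Most polygyne-host tiles lie on the side that chose the gene, and single libraries of every group depart from their group.

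SINVBB1_00350 had 14.3, 15.3, 20.2, 21.5, 22.4 and 25.0 CPM in mpBB gasters, and 4.09, 4.64, 13.5, 16.95, 29.1 and 35.4 CPM in pBB gasters. It had 1.08, 9.28, 11.99, 15.3, 22.0 and 50.2 CPM in pBL gasters, against 1.60, 2.06, 3.79, 3.96, 5.94 and 6.29 CPM in mBB gasters. All mpBB gasters and 15 of the 18 polygyne-host gasters were above every mBB gaster, while pBL replicate 3 was below all of them. In brain the same gene was at most 0.688 CPM, with 3 of 21 polygyne-host brains above the mBB median, and it was too low there to be tested.

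SINVBB1_06091 had 68.0 to 446 CPM in mpBB gasters (median 203), 40.9 to 450 in pBB (median 309) and 32.3 to 265 in pBL (median 160), against 7.01 to 495 CPM in mBB gasters (median 53.1). The highest of all 24 gasters was mBB replicate 3. No polygyne-host gaster was therefore above every mBB gaster, although 16 of 18 were above the mBB median. In brain this gene varied far less, at 30.0 to 47.2 CPM over all 28 brains.

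Among lower members, SINVBB1_09260 had the largest gap of all. It had 40.8, 41.4, 125, 154, 213 and 246 CPM in mpBB gasters, and 29.6, 50.3, 90.4, 192, 198 and 353 CPM in pBB gasters. It had 26.4, 36.4, 68.3, 102, 110 and 171 CPM in pBL gasters, against 44.5, 181, 445, 953, 1592 and 2087 CPM in mBB gasters. All 18 polygyne-host gasters were below the mBB median of 699 CPM, and 5 of 18 were below every mBB gaster, since mBB replicate 3 lay among the polygyne-host values. In brain it had 10.3 to 22.7 CPM in mpBB, 11.4 to 22.2 in pBB and 9.16 to 22.7 in pBL, against 10.7 to 22.96 CPM in mBB, so that the groups overlapped almost fully.

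SINVBB1_01264 had medians of 10.2 CPM in mpBB gasters (4.59 to 12.8), 3.69 in pBB (2.10 to 24.9) and 8.23 in pBL (5.31 to 44.6), against 40.0 CPM in mBB gasters (6.59 to 70.3). Of the 18 polygyne-host gasters, 17 were below the mBB median and 8 were below every mBB gaster.

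**Figure D2:**
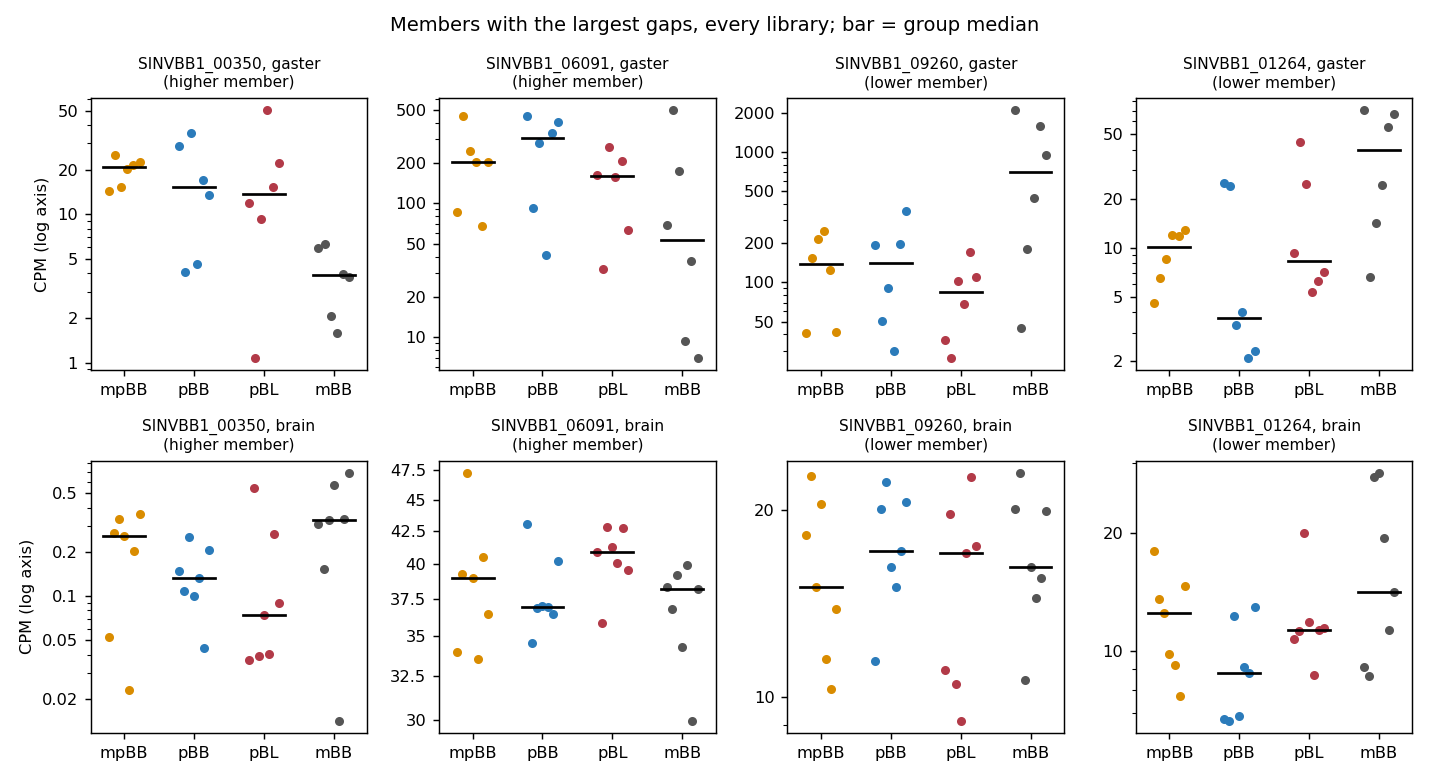
Points are single libraries in CPM on a log axis and bars are group medians, for the 2 higher and the 2 lower members with the largest gaps, in gaster (upper panels) and brain (lower panels), with mpBB, pBB and pBL left of mBB. In gaster the polygyne-host medians lie on the same side of mBB while the points overlap. In brain SINVBB1_00350 is under 1 CPM in every library.

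In no member did all 18 polygyne-host gasters lie apart from all 6 mBB gasters (0 of 100, against 0% of the 9516 genes). Taken singly, mpBB gasters did not overlap mBB gasters in 2 members (0.252% of all genes, in either direction), pBB in 4 (1.06%) and pBL in 5 (0.641%), and nothing is read from these counts because the same values chose the genes. Named after their values were seen, these were SINVBB1_00350 and SINVBB1_06374 in mpBB, and SINVBB1_04864, SINVBB1_06374, SINVBB1_00556 and SINVBB1_00765 in pBB. In pBL they were SINVBB1_04864, SINVBB1_04657, SINVBB1_04655, SINVBB1_08145 and SINVBB1_13673. SINVBB1_06374 had 15.5 to 21.2 CPM in mpBB and 16.4 to 26.6 in pBB, against 8.60 to 14.7 CPM in mBB gasters. The count of polygyne-host gasters that lay beyond the mBB median in the chosen direction was 12 to 18 over the 100 members, with a median of 17 of 18. It was 18 of 18 in 21 members, 17 higher and 4 lower. This count was not taken over all 9516 genes and uses the values that chose the members, so that it is a description only.

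Gasters of the same group differed widely in many members. Their within-group SD had a median of 0.586 on the log2 scale, against 0.266 for the 9516 genes, and 19 members had an SD over 1, against 2.54% of the 9516 genes. The gap exceeded the within-group SD in 48 of 100 members, and the ratio of gap to SD ranged from 0.347 to 2.22. Lower members varied most among mBB gasters, where their SD had a median of 0.760, against 0.585 among mpBB, 0.636 among pBB and 0.598 among pBL gasters. The same gasters chose the members, so that these spreads are a description and no trait of the members is read from them. Since gasters were sequenced whole, fewer cells of a type and less RNA per cell cannot be told apart.

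The group nearest to mBB was mpBB in 49 members, pBL in 34 and pBB in 17, and the farthest was pBB in 57, pBL in 32 and mpBB in 11. The median distance of higher members from mBB was 0.59 in mpBB, 0.75 in pBB and 0.69 in pBL, and that of lower members was -0.69 in mpBB, -0.90 in pBB and -0.73 in pBL. Among the 6086 genes whose 3 polygyne-host means lay on the same side of mBB, before any choice by gap, mpBB was the nearest in 41.9% and pBB the farthest in 56.1%. Nothing is read from the order of the groups, since the same values chose the members.

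Averaged over members, each library gave 1 value per direction. The mean of the 69 higher members was 0.472 to 0.830 above the mBB mean in mpBB gasters, 0.636 to 1.17 in pBB and 0.248 to 1.01 in pBL, against -0.209 to 0.122 in mBB gasters. The mean of the 31 lower members was -0.902 to -0.548 in mpBB, -1.23 to -0.787 in pBB and -1.29 to -0.714 in pBL, against -0.331 to 0.301 in mBB. The gap between these ranges follows from the choice of members. Within groups, members moved together little. The median correlation between members across the gasters of a group, a description over 24 libraries, was 0.10 among higher and 0.03 among lower members, against 0.04 among all 9516 genes.

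**Figure D3:**
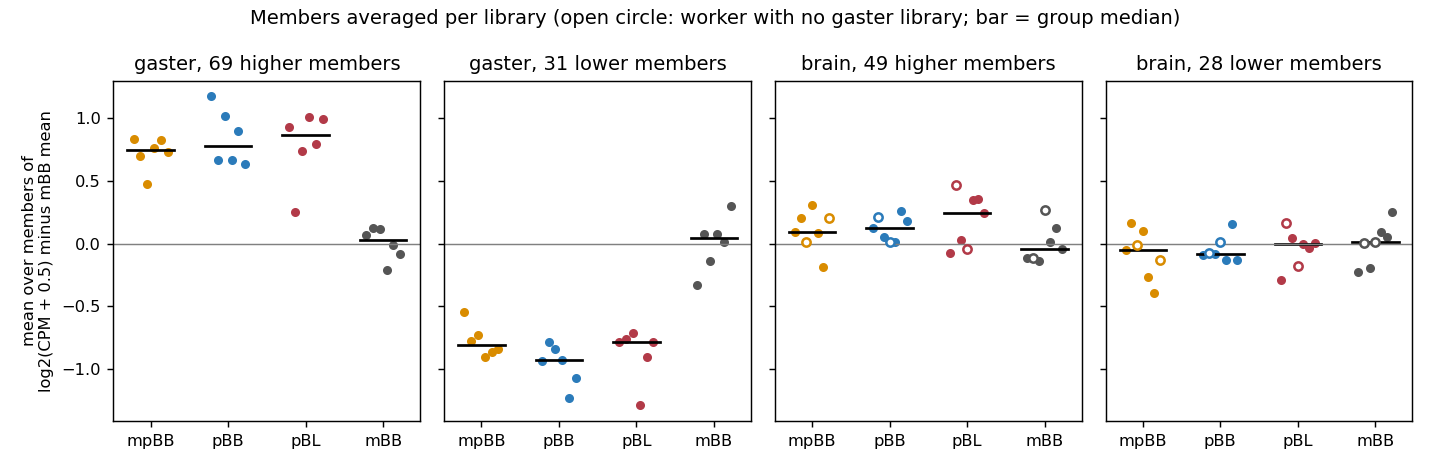
Each point is 1 library, the mean over higher or lower members of log2(CPM + 0.5) minus the mBB mean, and bars are group medians. Open circles are brains of workers that gave no gaster library. In gaster the polygyne-host libraries lie apart from mBB, which the choice of members fixes, and in brain the ranges of all 4 groups overlap.

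Brain libraries were not used to choose the members, although 20 of the 28 brains came from workers whose gasters were. Of the 100 members, 77 were high enough in brain to be tested, 49 higher and 28 lower, against 96.0% of the 9516 genes. The 23 others averaged at most 0.278 CPM over the brains and did not pass edgeR's filter on low counts, so that a difference there could be missed. With no such filter, 0 of the 100 members were called for the 3 polygyne-host groups together, against 5 of 15966 genes. In 5 members, all tested in brain, over 20% of gaster strand counts lay on the opposite strand (against 7.17% of the 9516 genes). Named after their values were seen, they were SINVBB1_10007 (99.2%), SINVBB1_06599 (93.7%), SINVBB1_02377 (38.9%), SINVBB1_05483 (24.1%) and SINVBB1_07929 (22.3%). Brain counts do not separate strands, so that their brain values may include such reads. In edgeR's two-sided quasi-likelihood test over all 12006 genes tested in brain, the mean of the 3 polygyne-host groups against mBB gave 0 of 77 members at an adjusted p of 0.05. The background was 7 genes, or 0.0583%. DESeq2 also called 0 members, while it called 32 of the 12006 genes. The lowest adjusted p of a member was 0.618 by edgeR. At an unadjusted p of 0.05, 9 members passed (11.7% of 77, against 4.99% of all genes tested), and 8 of these had the direction seen in gaster. The share with that direction was not taken over all genes that passed. Without the 4 outlying brains, 12 of 80 members passed (15.0%, against 5.43%). In brains of workers that gave a gaster library, 12 of 74 members passed (16.2%, against 7.55%). In the 2 brains per group of workers that gave none, 1 of 83 passed (1.2%, against 0.928%). With the replicate number as a block, in a fit without mpBB, 10 of 72 members passed (13.9%, against 10.5% of all genes tested). The same brains without the block, a fit added after the data had been seen, gave 8 of 72 (11.1%, against 5.20%).

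Each polygyne-host group was also set against mBB by itself, with the same mBB brains as control in each. In mpBB, the group that differs by host alone, 0 members were called by edgeR (0% of all genes) and 0 by DESeq2, and 3 members passed an unadjusted p of 0.05 (3.90%, against 2.27% of all genes tested). In pBB, 0 were called by edgeR (0%) and 0 by DESeq2, and 3 passed unadjusted (3.90%, against 4.14%). In pBL, 1 member was called (0.566%), and 14 passed unadjusted (18.2%, against 6.52%). Unadjusted counts were also taken by whether the workers gave a gaster library. Of 74 members in workers that did, 5 passed in mpBB (6.76%, against 3.75%) and 8 in pBB (10.8%, against 7.53%). In pBL 18 passed (24.3%, against 8.375%). Of 83 members in workers that did not, 2 passed in mpBB (2.41%, against 0.362%) and 3 in pBB (3.61%, against 0.574%). In pBL 2 passed (2.41%, against 1.715%). Between groups in polygyne hosts, pBL against pBB called 1 member (0.516%), and 7 passed unadjusted (9.09%, against 3.54%). With the replicate number as a block, in a fit without mpBB, pBL against pBB called 2 members, and the share over all genes in that fit is not given here. Between pBB and mpBB 0 were called (0%) by either tool, with 2 passing unadjusted (2.60%, against 1.57%). These last comparisons were added after the data had been seen.

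The direction seen in gaster was also seen in brain in 53 of 77 members (68.8%) for the 3 polygyne-host groups together. Among the 5857 genes tested in brain whose 3 polygyne-host gaster means lay on the same side of mBB, the share was 64.5%, close to that of the members. Without the 4 outlying brains the count was 51 of 80 (63.7%, against 67.4% of such genes), and 0 members were called, against 4 of 12169 genes. In the brains of workers that gave no gaster library it was 46 of 83 (55.4%, against 51.5% of such genes), and in the brains of workers that did it was 51 of 74 (68.9%, against 67.0%). The median log2 fold change was 0.10 for higher members and -0.10 for lower members, against -0.003 for all genes tested. All 3 brain means lay on the gaster side of mBB in 31 of 77 members (40.3%, against 40.9% of such genes), and on the opposite side in 13.

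**Figure D4:**
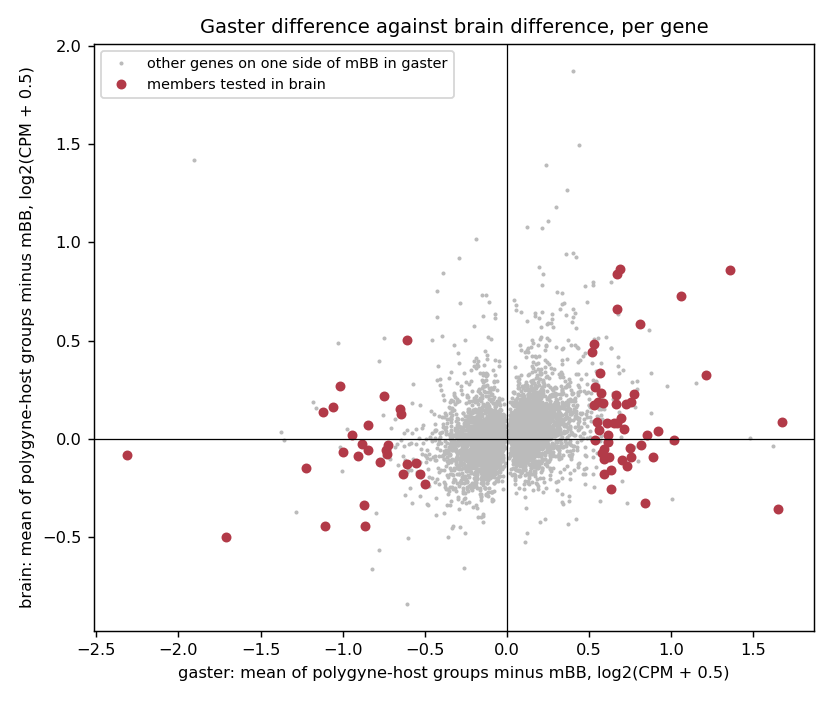
Each point is a gene whose 3 polygyne-host gaster means lay on the same side of mBB, with the 77 members tested in brain in red. Both axes give the average of the 3 polygyne-host means minus the mBB mean in log2(CPM + 0.5), for gaster (horizontal) and brain (vertical). Members lie far from 0 along the gaster axis by choice and on both sides of 0 along the brain axis.

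The higher members with the smallest p in brain were SINVBB1_03214 and SINVBB1_07074. SINVBB1_03214 had 12.7 to 34.8 CPM in mpBB brains (median 21.6), 12.3 to 22.2 in pBB (median 16.2) and 6.76 to 31.9 in pBL (median 18.9), against 4.42 to 22.5 CPM in mBB brains (median 10.1). Of the 21 polygyne-host brains, 20 were above the mBB median. Its log2 fold change was 0.80 ± 0.25 (SE), which did not pass the test (adjusted p = 0.618 by edgeR). It was 0.72 without the 4 outlying brains. Over 41 settings it ranged from 0.24, in the brains of workers with no gaster library, to 1.08 without mBB replicate 2, and it was called in none (lowest adjusted p = 0.0763 by edgeR or DESeq2). In gaster it had medians of 65.3 CPM in mpBB, 75.9 in pBB and 65.4 in pBL, against 35.8 CPM in mBB, and all 18 polygyne-host gasters were above that median. SINVBB1_07074 was scarce in brain, with medians of 0.949 CPM in mpBB, 0.640 in pBB and 1.46 in pBL, against 0.429 CPM in mBB (log2 fold change 1.53 ± 0.51, adjusted p = 0.650 by edgeR). It was 1.70 without the 4 outlying brains and 0.69 in the brains of workers with no gaster library. For SB/Sb workers against mBB, DESeq2 called this gene (adjusted p = 0.0200) and edgeR did not (adjusted p = 0.137, or 0.167 without the 4 outlying brains).

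The lower members with the smallest p in brain were SINVBB1_13673 and SINVBB1_01264. SINVBB1_01264 had medians of 12.5 CPM in mpBB brains, 8.83 in pBB and 11.3 in pBL, against 14.1 CPM in mBB brains, where single brains ranged from 8.67 to 28.3 CPM. Its log2 fold change of -0.62 ± 0.20 did not pass the test (adjusted p = 0.618 by edgeR). It was -0.45 without the 4 outlying brains, and it was -0.38 in workers numbered under 140 and -0.81 in those over 140.

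SINVBB1_13673 was the member called in pBL brains. It had 5.595 to 13.8 CPM in pBL brains (10.6 ± 3.01, mean ± SD, n = 7), against 19.5 to 34.9 CPM in mBB brains (23.1 ± 5.503, n = 7), with no overlap. SINVBB1_13673 was the only member whose pBL brains lay apart from mBB brains in the gaster direction, against 0.5% of the 12006 genes in either direction. In the gaster direction no member separated mpBB from mBB brains (0.025% of genes in either direction) or pBB from mBB brains (0.05%). Members that separated a single group in the other direction were not counted. All polygyne-host brains lay apart from mBB brains in no member (0%). Set against mBB, the log2 fold change of SINVBB1_13673 in pBL was -1.12 ± 0.19 (adjusted p = 0.00058 by edgeR), and set against pBB it was -1.04 ± 0.19 (adjusted p = 0.00155). In SB/SB workers from polygyne hosts, its log2 fold changes against mBB were -0.16 ± 0.18 in mpBB and -0.08 ± 0.18 in pBB, neither of which passed the test (adjusted p = 1 in mpBB and 0.9996 in pBB by edgeR). With the 3 groups together it was -0.46 ± 0.15 (adjusted p = 0.618 by edgeR). The block could be fitted only without mpBB, where the contrast is the mean of pBB and pBL against mBB. That contrast was -0.61 both with the block (adjusted p = 0.030 by edgeR) and without it (adjusted p = 0.136 by edgeR), the second fit having been added after the data had been seen. In gaster pBL was also the lowest group, with medians of 5.90 CPM in mpBB, 4.47 in pBB and 2.52 in pBL, against 7.81 CPM in mBB. All 6 pBL gasters and 14 of the 18 polygyne-host gasters were below every mBB gaster. The same gaster values chose this gene as a lower member, so that they are a description only. Without the 4 outlying brains the call in pBL remained, at -1.22 against mBB and -1.25 against pBB. Within workers numbered under 140, with 3 brains per group, it ended (-1.33 against mBB, adjusted p = 0.181 by edgeR), and within those over 140 it held (-1.004 against mBB, adjusted p = 0.0157, and -0.98 against pBB, adjusted p = 0.0187 by edgeR). It also ended in the 2 brains per group of workers with no gaster library (-1.22, adjusted p = 1).

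SINVBB1_11223, a higher member named after its values were seen, was the second member called for pBL against pBB with the replicate block. It had medians of 2.09 CPM in pBL brains (1.10 to 2.61) and 0.762 CPM in pBB brains (0.442 to 1.58). Its log2 fold change of 1.28 ± 0.32 did not pass the test over all 4 groups (adjusted p = 0.078 by edgeR). In the fit without mpBB it was 1.30 with the block (adjusted p = 0.00888 by edgeR) and 1.28 without it (adjusted p = 0.067 by edgeR). It was called in 8 of 42 settings, among them DESeq2, 2 covariates and the fits without mpBB replicate 11 or 15, pBB replicate 7 or pBL replicate 1. It was not called without the 4 outlying brains (1.13, adjusted p = 0.462 by edgeR), in workers numbered under 140 (adjusted p = 0.999 by edgeR) or in those over 140 (adjusted p = 0.536 by edgeR).

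When the rule was applied to brain values in place of gaster values, 2777 genes met it, among them 20 members. Since 20 of the 28 brains came from workers whose gasters chose the members, nothing is read from the overlap. Of these 20 members, 5 were among the 100 genes with the largest brain gaps. They were SINVBB1_03214 (brain gap 0.72), SINVBB1_11140 (0.55), SINVBB1_03324a (0.48), SINVBB1_06211 (0.39) and SINVBB1_11122 (0.37), named after their values were seen. All 5 were higher in polygyne hosts in brain. In gaster 4 of them were higher too, but SINVBB1_06211 was lower there, with medians of 346 CPM in mpBB, 269 in pBB and 312 in pBL, against 499 CPM in mBB gasters. In brain its medians were 120 CPM in mpBB, 98.3 in pBB and 119 in pBL, against 85.8 CPM in mBB. In workers that gave both tissues, deviations from the group mean correlated between tissues at 0.97 in SINVBB1_03324a and 0.93 in SINVBB1_11140. The correlation was 0.82 in SINVBB1_11122, 0.28 in SINVBB1_03214 and 0.08 in SINVBB1_06211.

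In the 20 workers that gave both tissues, deviations from the group mean could be compared between gaster and brain. The correlation per gene across these workers, given as a description, had a median of 0.15 over the 77 members, against 0.01 over the 9134 genes of the 9516 that were tested in brain. It exceeded 0.9 in 5 members (6.49%), against 0.405% of those genes. These 5, named after their values were seen, were SINVBB1_13155, SINVBB1_05483, SINVBB1_03324a, SINVBB1_12773 and SINVBB1_11140. In several of them the workers fell into separate levels, so that their values say more than the correlation. Gasters of these 20 workers were among those that chose the members, so that nothing is read from members exceeding the 9134 genes.

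SINVBB1_13155, a higher member, was at 0 to 0.0619 CPM in the gasters of 5 workers (1 mpBB, 2 pBB and 2 mBB), and the brains of the same 5 were at 0 to 0.243 CPM. The other 15 workers, among them all 5 pBL workers, had 2.52 to 13.1 CPM in gaster and 5.15 to 25.3 CPM in brain. SINVBB1_05483, a lower member, was under 0.5 CPM in the gasters of 8 workers (3 mpBB, 3 pBB and 2 mBB), and their brains had 0.505 to 1.66 CPM. The other 12 workers had 28.2 to 174 CPM in brain, and again all 5 pBL workers were among them. In this gene 24.1% of the strand counts in gaster lay on the opposite strand, and brain counts do not separate strands.

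In SINVBB1_03324a, a higher member, 1 mpBB, 1 pBB and 1 mBB worker had 1.35 to 2.12 CPM in gaster and 1.08 to 1.41 CPM in brain, and the other 17 had 9.39 to 38.8 CPM in gaster and 6.13 to 29.8 CPM in brain. In the other 2 genes a single mBB worker stood apart. SINVBB1_12773, a lower member, had 2.81 to 5.71 CPM in polygyne-host gasters, against 3.72 to 5.85 CPM in 5 mBB gasters and 65.0 CPM in the gaster of mBB replicate 7, whose brain had 59.6 CPM. Its gaster gap was 0.74 with that worker and 0.14 without, which took it out of the 100. The same worker had 0 CPM of SINVBB1_11140, a higher member, in both tissues, against 0.802 to 7.35 CPM in gaster and 2.51 to 20.7 CPM in brain of the other 19.

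**Figure D5:**
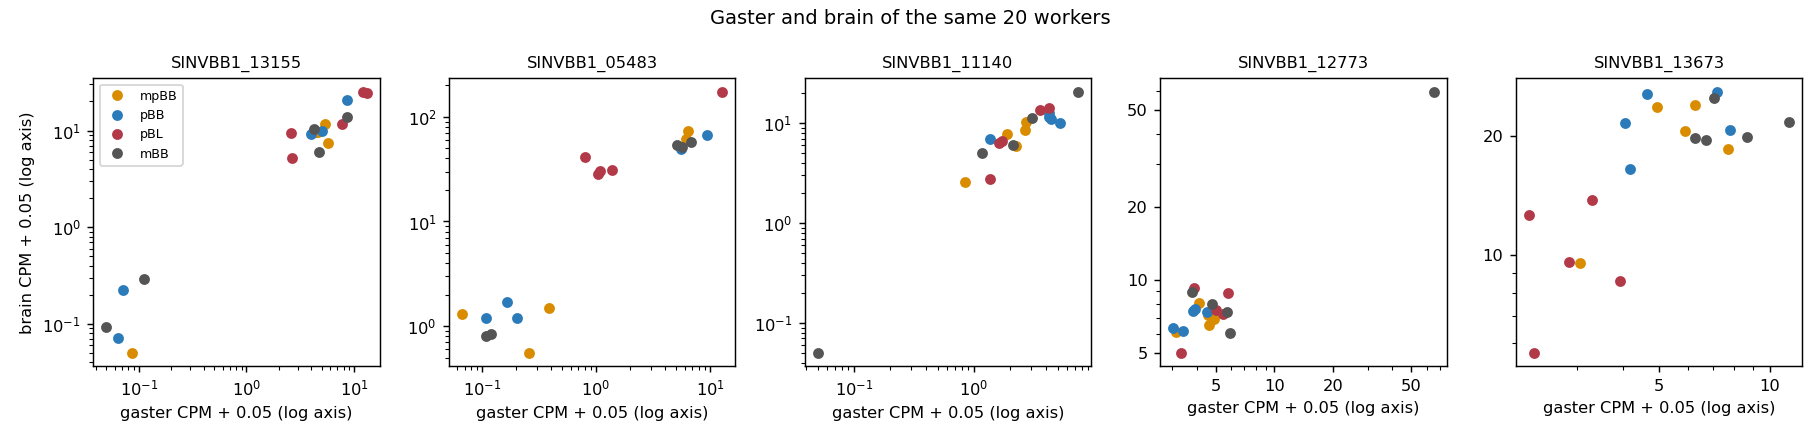
Each point is 1 of the 20 workers with both tissues, with gaster (horizontal) and brain (vertical) CPM on log axes after adding 0.05. Workers with little of SINVBB1_13155, SINVBB1_05483 or SINVBB1_11140 in gaster also have little in brain, and 1 mBB worker stands apart in SINVBB1_12773. In SINVBB1_13673 pBL workers are low in both tissues, and 1 mpBB worker lies among them.

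How far the choice of members rests on single gasters was seen by leaving out each in turn. Between 64 and 93 of the 100 members were chosen again, and 17 members, 12 higher and 5 lower, were chosen again whichever gaster was left out. The lowest count, 64, came without mBB replicate 1.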

How the data were processed

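Counts of reads per gene were analysed for 24 gasters and 28 brains. The tools named per the submitters' processing notes were Trim Galore, STAR and edgeR. Versions and genome build: not given in the sources used here. The deposited files hold raw counts in 3 columns, unstranded and by strand. Per the labels' protocols, gaster libraries were stranded and brain libraries were not, so the reverse-strand column was used for gaster (96.1% to 97.1% of strand counts) and the unstranded one for brain. Brain reads from overlapping genes on opposite strands therefore cannot be told apart, and different kits bar comparing levels between tissues. CPM is relative to all gene counts. The 4 rows that name no gene, among them 6.73% to 53.4% of reads unmapped, were left out.

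Members were chosen by the rule in gaster. Brain counts were fitted in R 4.3.3 with edgeR 4.0.16 (its filter by group, TMM, quasi-likelihood test, all 28 brains, no covariates), with Benjamini-Hochberg adjustment over 12006 genes at 0.05 and standard errors derived from the F statistic. Alternatives were DESeq2 1.42.0, RLE factors, other filters, covariates, parts of the workers, left-out libraries and a replicate block. Named genes were the 2 largest gaps in each direction in gaster and the 2 smallest p in each direction in brain; others are said to be named after their values were seen. The members and lists were chosen with earlier results of these data known. The rule and fit were tested on simulated data.

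Replicate numbers are shared by pBB, pBL and mBB, and the labels do not say what they mark. In brain, pBL and pBB libraries of the same number deviated together in all 7 pairs (correlation 0.110 to 0.365 over the 1000 most variable genes), so these numbers count as pairing. The reported fit has no block, and the blocked value is given beside a result where it changes the call.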

Additional observations from a re-analysis of the deposited data

Results flagged for a closer look

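Of 136 sets of 6 or 7 libraries examined (a named gene or a mean of members, in a group and tissue), 14 held a library far from the others. A chance rate of about 1 in 20 holds for normally distributed values, and no rate was computed for these data. Several of these genes were also named because single workers stood apart in them, so that the count is not read against chance.

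Among mBB gasters, SINVBB1_06091 was at 495 CPM in replicate 3, against 7.01 to 175 CPM in the others. SINVBB1_11223 was at 8.19 CPM in replicate 1, against 3.02 to 4.02 CPM. SINVBB1_12773 was at 65.0 CPM in replicate 7, against 3.72 to 5.85 CPM. All 3 lie in the monogyne-host group to which the gaps are measured.

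In brain, SINVBB1_12773 was at 59.6 CPM in mBB replicate 7, against 6.02 to 8.85 CPM, and at 72.2 CPM in pBB replicate 4, against 6.10 to 7.54 CPM. SINVBB1_03214 was at 22.5 CPM in mBB replicate 2, against 4.42 to 12.02 CPM. SINVBB1_13673 was at 34.9 CPM in mBB replicate 4, against 19.5 to 25.0 CPM. SINVBB1_01264 was at 20.0 CPM in pBL replicate 3, against 8.74 to 11.9 CPM.

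Among pBL libraries, SINVBB1_05483 was highest in replicate 5 in both tissues, at 12.8 CPM in gaster against 0.756 to 1.33 CPM in the others, and at 174 CPM in brain against 28.2 to 83.1 CPM. SINVBB1_03324a was at 29.5 CPM in gaster pBL replicate 1, against 12.99 to 13.6 CPM. SINVBB1_11140 was at 5.87 CPM in gaster mpBB replicate 17, against 0.802 to 2.67 CPM.

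In pBL gasters, the mean of the higher members was 0.248 in replicate 3, against 0.740 to 1.01 in the others, and the mean of the lower members was -1.29 in replicate 6, against -0.903 to -0.714.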

How the results depend on the processing

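The count of members called in brain for the 3 polygyne-host groups together was 0 under 12 of 13 alternatives and 0 with any brain left out. With the replicate block, which leaves out mpBB, it was 1 for pBB and pBL together, with 25 of 11785 genes called in all. Without mpBB and without the block, a fit added after the data had been seen, it was 0, with 20 of 11785 genes called. For pBL against mBB it was 1, with 2 in DESeq2 and 0 in workers numbered under 140 or in workers with no gaster library. For pBL against pBB it was 1, with 2 in DESeq2, with a covariate for merged runs, with one for workers numbered under 140 and with the replicate block, 0 in workers numbered under 140 or without a gaster library, and 1 to 2 with a brain left out. For mpBB against mBB, pBB against mBB and pBB against mpBB it was 0 under the alternatives run. In these comparisons of single groups, the share of all genes called under each alternative, DESeq2 among them, is not given here. No change in the number of members called is therefore read as a result about the members. The number of members with the gaster direction in brain was 42 to 70 over alternatives, with 65 to 100 members tested, and 49 to 57 with a brain left out. The median log2 fold change was 0.01 to 0.20 for higher members and -0.17 to -0.10 for lower members over alternatives, and 0.07 to 0.19 and -0.14 to -0.06 with a brain left out. The choice of members moved most: 58 of 100 were chosen again with a minimum of 5 CPM, 56 with group medians, 44 in workers numbered under 140, 35 in those over 140, and 64 to 93 with a gaster left out; the cause was not tested.

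The replicate block could not be fitted for mpBB, which shares no numbers. Same-numbered brains correlated at 0.04 to 0.33 for pBB and mBB (mean 0.138, against -0.023 for other pairs) and at -0.02 to 0.17 for pBL and mBB (mean 0.063, against -0.011), with the lowest under the 0.1 set for pairing. A fit of only the groups compared is the same as the reported fit for the 3 groups together. Low brain counts limit the 23 members not tested there.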
